A study of Mus musculus with 31 samples.

Results

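The genes described here encode plasma proteins of complement and coagulation that the liver secretes. The set lists 24 coagulation and 16 complement genes, and a gene entered when the array annotation gave it a probe set. Where a gene had several probe sets with a single gene symbol, the brightest one on average across the 31 arrays was kept. This gave 38 measured members of 40 listed, 23 for coagulation and 15 for complement, out of 17097 genes with a probe set. No probe set was listed for C3 or Cpb2, and both were not analysed here.

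Liver RNA of male mice was hybridised to Affymetrix arrays in 3 experiments with 8 groups. In the first, 14-week-old fed Xbp1 ko mice were compared with WT littermates, labelled c57BL/6, with 4 arrays each. Another experiment used only Xbp1 ko mice, aged 9 weeks, that carried a label of IRE1 siRNA or of luciferase siRNA (a control target) and were taken 8 days later; each label had 4 arrays, and there was no group with intact Xbp1. In the last, Ire1 ko mice and WT mice aged 14 weeks were given tunicamycin at 2 mg/kg for 6 h, or were left untreated and fed. Untreated Ire1 ko had 3 arrays and the other 3 groups had 4 each. The strain label reads mixed for Ire1 ko mice and c57BL/6 for WT mice, although untreated WT mice were also labelled as littermates. Under those strain labels, strain cannot be told apart from Ire1 genotype. The deleted part of each gene and any Cre driver were not stated in the labels. The arrays of a group were labelled biological replicates. In whole liver, fewer cells of a type and less RNA per cell cannot be told apart.

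Coagulation is a chain of proteases, several of which need a vitamin K dependent modification in the endoplasmic reticulum (ER), that ends with thrombin turning fibrinogen into a clot. Complement is another protease chain in plasma, started by antibodies, lectins or surfaces, that ends with a pore of the terminal components C5 to C9 in a target membrane. Hepatocytes make most of these proteins, fold and glycosylate them in the ER and secrete them in large amounts. XBP1 is a transcription factor of the ER stress response, IRE1α (gene Ern1) senses ER stress and activates Xbp1 by splicing its mRNA, and tunicamycin blocks N-glycosylation in the ER.

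The labels were first set against the targeted genes. Xbp1 intensity was 505, 404, 567 and 404 in Xbp1 ko livers, against 912, 807, 1140 and 916 in WT littermates. The groups did not overlap, with a log2 change of -1.01 (SE 0.14, limma, Benjamini-Hochberg adjusted p = 0.00872). In the siRNA experiment Ern1 went against the labels. It read 169, 184, 236 and 230 on arrays labelled IRE1 siRNA, against 21, 18, 23 and 35 on arrays labelled luciferase siRNA (log2 change 3.11, limma, adjusted p = 0.000754). In Xbp1 ko livers of the first experiment, with no siRNA label, Ern1 read 175, 198, 181 and 201. The arrays labelled IRE1 siRNA overlapped these values, and the arrays labelled luciferase siRNA all lay below them. Age and experiment also differ in that comparison. The groups are therefore named below by their labels, and every direction in that experiment would turn round if the labels were exchanged. The Ern1 probe set checks nothing in Ire1 ko livers, since the deleted part was not stated: it averaged 150.3 ± 2.52 in untreated Ire1 ko (SD, n = 3) and 149.2 ± 36.6 in untreated WT livers (SD, n = 4). With tunicamycin it averaged 372.5 ± 81.7 in Ire1 ko and 251.8 ± 43.9 in WT livers (SD, n = 4 each). Ern1 was called higher in Ire1 ko there (log2 change 0.55, limma, adjusted p = 0.0371), although the groups overlapped.

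All 38 members passed the filter on low intensity, which asked for a value above the 30th percentile of the array in at least 3 arrays. Their mean intensities over the 31 arrays ran between 75.5 for Pros1 and 4369 for Fgb, while the median probe set of every array read 5. Bright genes were called more often, so each count of members is given beside the share of all genes called and beside the share among genes at least as bright as Pros1. Summed over 10 hepatocyte markers, intensity lay between 36944 and 38872 in Xbp1 ko livers, against 40044 to 43311 in WT littermates. The same sum was 35988 to 37527 on arrays labelled IRE1 siRNA and 38357 to 40495 on arrays labelled luciferase siRNA. These sums did not overlap in either experiment, and 2 of 9 tested markers (Apoa1 and Cyp2e1) were called lower in Xbp1 ko. Their part in the results was not tested.

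Promoter sequence was available from RefSeq (GRCm38.p6) for 31 of the 40 listed genes, in 32 windows of 250 bases before the annotated start. The windows of 3 members are shown because these members moved most or against the others: Hc fell most in WT livers under tunicamycin, F7 fell in 4 comparisons, and C4bp rose where most members fell. Capitals mark the letters GTTAAT on either strand, the core of the site bound by the liver factor HNF1. They lie at chr2:35061413-35061662 (minus strand) for Hc, chr8:13025784-13026033 (plus strand) for F7 and chr1:130661619-130661868 (minus strand) for C4bp.
Hc: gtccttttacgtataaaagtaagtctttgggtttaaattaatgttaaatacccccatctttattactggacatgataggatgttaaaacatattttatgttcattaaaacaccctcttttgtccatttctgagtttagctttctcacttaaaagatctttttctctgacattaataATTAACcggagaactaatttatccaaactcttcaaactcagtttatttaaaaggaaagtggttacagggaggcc
F7: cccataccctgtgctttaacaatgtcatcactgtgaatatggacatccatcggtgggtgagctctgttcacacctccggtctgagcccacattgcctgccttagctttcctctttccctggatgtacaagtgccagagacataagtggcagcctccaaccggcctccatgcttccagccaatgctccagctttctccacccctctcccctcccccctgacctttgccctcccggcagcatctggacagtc
C4bp: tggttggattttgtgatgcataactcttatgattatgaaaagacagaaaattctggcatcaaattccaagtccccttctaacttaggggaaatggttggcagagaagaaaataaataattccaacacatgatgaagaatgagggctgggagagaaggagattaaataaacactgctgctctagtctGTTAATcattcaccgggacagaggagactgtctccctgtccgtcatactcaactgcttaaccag

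GTTAAT or its reverse complement occurred in 9 of the 32 windows and in 6.43% of all 32851 windows of the same length. The 9 windows with GTTAAT belonged to C4bp, C8a, C8b, F13b, Fga, Fgb, Hc, Proz and Vtn. Under tunicamycin in WT livers Hc, Proz, C8a, C8b, F13b and Vtn were called lower, C4bp was called higher, and Fga and Fgb were not called. In Ire1 ko livers Hc and Vtn were not called either. The window of F7 held no match. The full ER stress element, CCAAT followed 9 bases later by CCACG, was found in 0 of the 32 windows and in 0.113% of all windows. Its part CCACG was found in 4 (Klkb1, Masp2, Proz and Serpinf2), against 28.3% of all windows. ACGTG, the core of sites bound by XBP1, was found in 6 (C8g, Cpb2, F10, Masp2, Proz and Serpind1), against 16.6% of all windows. ACGTG and CCACG overlap where a window reads CCACGTG. The C/EBP pattern TTGCNNAA was found in 8 windows, against 9.56% of all. All searches covered both strands, and a match here is a description of letters only. The member windows held a median of 48.6% G and C, against 52.4% over all windows. The counts were not matched for this difference in base content.

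Loss of Xbp1 was examined first. In Xbp1 ko livers 9 of the 38 members were lower than in WT littermates and 0 were higher, against 2.07% of all 14008 tested genes called lower (0.642% higher, 2.71% in either direction) and 6.87% called lower among genes at least as bright as the dimmest member. With a filter on a group mean of at least 16 in place of the percentile, 16 members were called lower and 1, C4bp, higher. The fall was concentrated in 4 genes with at least a 2.11-fold difference of means: Hc, Proc, F7 and Serping1. Coagulation gave 5 of the 9 (Proc, F7, F2, F12 and F5) and complement gave 4 (Hc, Serping1, Masp2 and C8a). The median log2 change over the members was -0.20, against 0.01 over all genes tested. Only 3000 of the 14008 genes were at least as bright as the dimmest member, so these medians cover genes of unlike brightness.

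Among the vitamin K dependent clotting enzymes, F7 starts coagulation together with tissue factor. Its intensity was 100, 78, 84 and 66 in Xbp1 ko livers, against 246, 216, 237 and 190 in WT littermates. The highest ko array was far below the lowest WT array, and F7 fell by 1.45 on the log2 scale (SE 0.14, limma, adjusted p = 0.00135). F2, which encodes prothrombin, read 2062, 1943, 1852 and 2095 in Xbp1 ko, against 2956, 3171, 3064 and 3024 in WT littermates. It fell less, with a log2 change of -0.62 (SE 0.05, limma, adjusted p = 0.000336), again with no overlap. F9 and F10, the proteases between F7 and prothrombin, had log2 changes of 0.04 and -0.18 and were not called. Of the vitamin K dependent anticoagulants only Proc was called. It encodes protein C, which inactivates the clotting cofactors V and VIII. Proc read 504, 553, 612 and 606 in Xbp1 ko, against 1719, 1665, 1790 and 1674 in WT littermates. The ko level was 33.1% of WT, a log2 change of -1.59 (SE 0.07, limma, adjusted p = 4.13e-05). Its cofactor Pros1 (log2 change 0.12) and Proz (-0.22), the cofactor for inhibition of factor X, were not called.

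F12, which starts the contact pathway, read 704, 715, 700 and 740 in Xbp1 ko livers, against 1034, 1078, 1192 and 979 in WT littermates (log2 change -0.58, limma, adjusted p = 0.00237). F5, the cofactor of factor X, read 429, 430, 422 and 462 in Xbp1 ko, against 677, 621, 653 and 562 in WT littermates (-0.53, limma, adjusted p = 0.00538). Neither gene overlapped between the groups. The log2 changes of the other contact and intrinsic members were -0.52 for F11, -0.28 for Klkb1 and -0.02 for Kng1, none of them called. No fibrinogen chain was called: Fgb read 4839, 4077, 4622 and 4501 in Xbp1 ko, against 4445, 4629, 4288 and 4571 in WT littermates, and these overlap. No anticoagulant serpin and no member of the fibrinolysis group passed the test either, and Serpinc1, which encodes antithrombin, had a log2 change of 0.05.

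In complement, Hc encodes C5, whose cleavage begins pore formation. Hc read 773, 605, 852 and 716 in Xbp1 ko livers, against 2357, 2168, 2543 and 2297 in WT littermates. All ko arrays lay below all WT arrays, and the mean was 737 ± 104 in Xbp1 ko and 2341 ± 156 in WT littermates (SD, n = 4 each). The log2 change was -1.68 (SE 0.10, limma, adjusted p = 0.00014). Serping1, the C1 inhibitor that restrains both the classical and contact pathways, read 1004, 793, 818 and 806 in Xbp1 ko, against 1894, 1876, 1881 and 1562 in WT littermates. Its groups were separate, with a log2 change of -1.08 (SE 0.10, limma, adjusted p = 0.000926). Masp2, the lectin pathway protease, read 190, 175, 176 and 194 in Xbp1 ko, against 287, 288, 282 and 263 in WT littermates (-0.61, limma, adjusted p = 0.00187). C8a, a chain of the pore component C8, had a log2 change of -0.47 (limma, adjusted p = 0.0263), and it was not called when any of 6 of the 8 arrays was left out (highest adjusted p = 0.102). C6 (-0.04), C8g (-0.06) and Cfi (-0.04) were not called. C4bp, an inhibitor that binds C4b, read 1124, 1078, 1209 and 1103 in Xbp1 ko, against 878, 868, 982 and 1002 in WT littermates. Its groups did not overlap, but its log2 change of 0.28 was not called (limma, adjusted p = 0.0728).

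**Figure D1:**
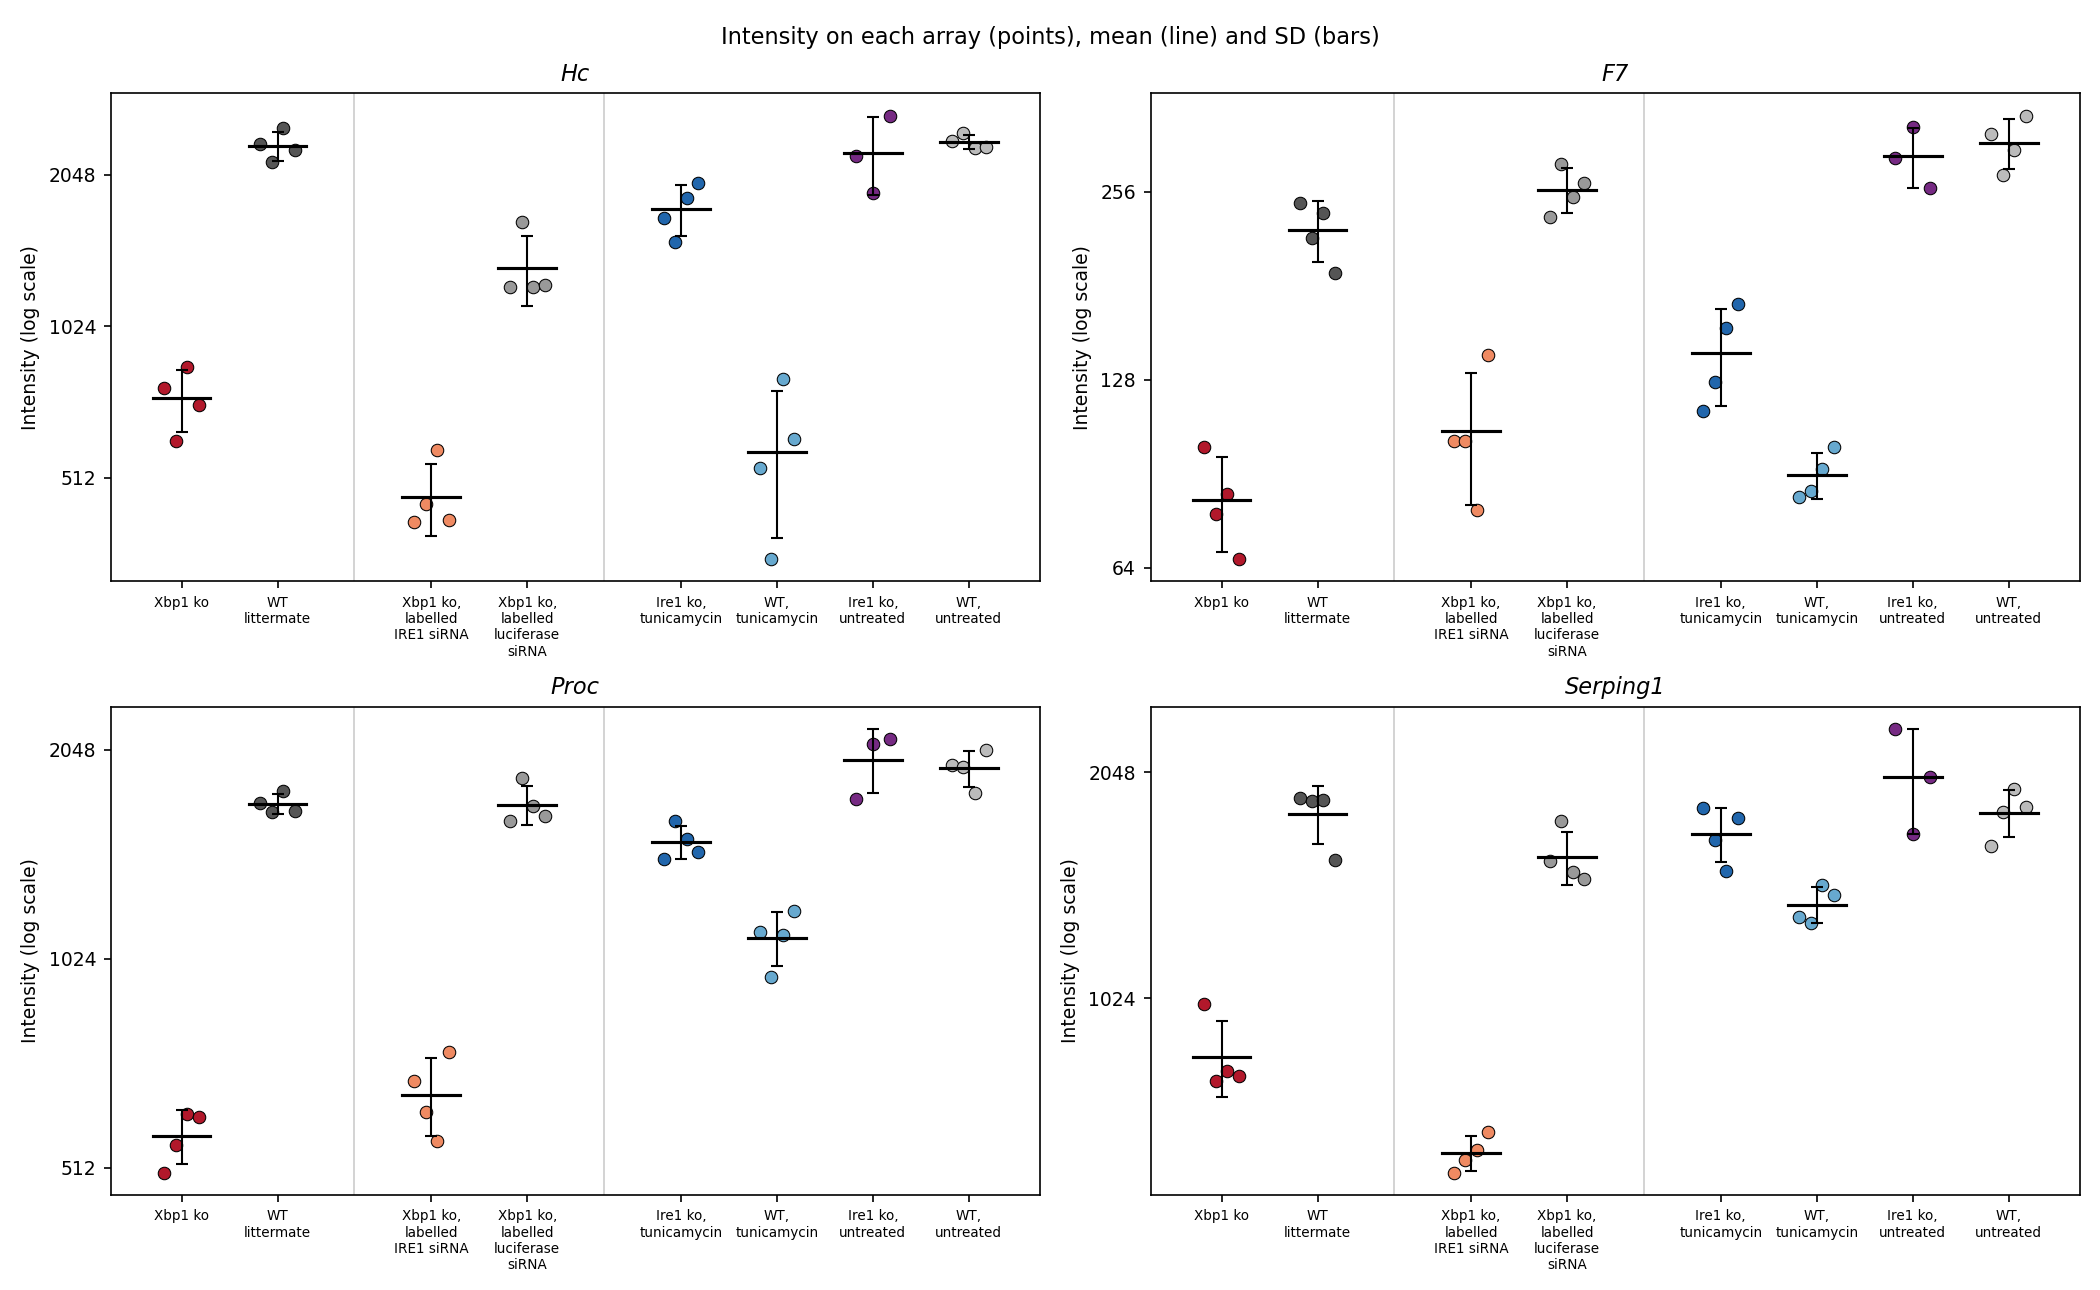
Intensity on a log scale of Hc, F7, Proc and Serping1 on each array (points), with the mean (line) and SD (bars) of the 8 groups. The 4 Xbp1 ko arrays lie below the 4 WT littermate arrays for all 4 genes, and the 4 arrays labelled IRE1 siRNA below the 4 labelled luciferase siRNA; Hc under tunicamycin lies between 1507 and 1973 in Ire1 ko and between 353 and 804 in WT livers.

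Among genes that modify or move clotting factors, 2 of 9 were lower in Xbp1 ko livers and 0 were higher. The shares of all genes called lower and higher were 2.07% and 0.642%. Among genes at least as bright as the dimmest member, 6.87% were called lower, although some of the 9 were dimmer. Furin, a protease that removes the propeptide of vitamin K dependent factors, read 41, 47, 38 and 51 in Xbp1 ko, against 85, 95, 92 and 88 in WT littermates (log2 change -1.03, limma, adjusted p = 0.00189). Pcsk6, a related convertase, had a log2 change of -0.93 (limma, adjusted p = 0.032). Of 18 measured complement genes outside the set, 1 was lower: Clu (clusterin), a fluid-phase inhibitor of the pore, with a log2 change of -0.85 (limma, adjusted p = 0.00135).

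The siRNA experiment was compared next, within Xbp1 ko livers. On arrays labelled IRE1 siRNA 14 of 38 members were lower than on arrays labelled luciferase siRNA and 0 were higher, against 1.14% of 14030 tested genes called lower (0.649% higher, 1.79% in either direction) and 3.53% called lower among genes at least as bright as the dimmest member. All 9 members called lower in Xbp1 ko livers were among the 14, joined by F10, F13b, Fga, Fgg and Mbl1. Summed over 8 stellate cell and fibroblast markers, intensity was 825 to 1177 on arrays labelled IRE1 siRNA and 724 to 806 on arrays labelled luciferase siRNA, with no overlap and 0 of 7 tested markers called, and its part in the result was not tested. The median log2 change of the members was -0.27, against 0.04 over all genes, of which only 3000 were at least as bright as the dimmest member.

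Hc read 419, 454, 581 and 422 on arrays labelled IRE1 siRNA, against 1227, 1653, 1229 and 1235 on arrays labelled luciferase siRNA. Proc read 682, 616, 559 and 753 on the arrays labelled IRE1 siRNA, against 1617, 1866, 1703 and 1646 on those labelled luciferase siRNA. For both genes every array of one label lay below every array of the other, with log2 changes of -1.51 for Hc (limma, adjusted p = 0.00212) and -1.40 for Proc (limma, adjusted p = 0.000754). Serping1 read 599, 622, 642 and 679 with the IRE1 siRNA label and 1561, 1765, 1509 and 1474 with the luciferase siRNA label (log2 change -1.31, limma, adjusted p = 0.000701). F7 read 102, 102, 79 and 140 with the IRE1 siRNA label and 233, 284, 251 and 264 with the luciferase siRNA label (-1.31, limma, adjusted p = 0.00886). Neither gene overlapped between the labels. F2 read 1777, 1736, 1687 and 1989 with the IRE1 siRNA label and 2922, 3168, 3064 and 2823 with the luciferase siRNA label (-0.74, limma, adjusted p = 0.00112).

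The remaining 9 changes were smaller, between -0.57 for C8a and -0.25 for F10. The fibrinogen chains were split. Fgg, the gamma chain, read 3091, 2709, 3051 and 3112 with the IRE1 siRNA label and 4132, 4128, 4200 and 4127 with the luciferase siRNA label, and fell by 0.47 on the log2 scale (limma, adjusted p = 0.00246). Fga, the alpha chain, had a log2 change of -0.40 (limma, adjusted p = 0.0277), a call lost when any of 6 of the 8 arrays was left out. Fgb, the beta chain, had a log2 change of -0.04 and was not called. The 3 anticoagulant serpins had log2 changes of at most 0.08, none called. The call of F5 (-0.51, limma, adjusted p = 0.0322) was lost when any of 7 of the 8 arrays was left out. The 2 convertases were again lower, Furin with a log2 change of -1.18 (limma, adjusted p = 0.00748) and Pcsk6 with -1.04 (limma, adjusted p = 0.000754), and so were Clu (-0.83, limma, adjusted p = 0.00212) and C4b (-0.55, limma, adjusted p = 0.0116), which may share signal with its paralog C4a.

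The experiments on Xbp1 ko and on siRNA share no array. Across the 38 members, their log2 changes correlated at 0.95 by Pearson and 0.88 by Spearman, against 0.51 and 0.28 across the 13314 genes tested in both. With the siRNA labels exchanged the members' values would be -0.95 and -0.88, those of all genes -0.51 and -0.28, and 0 members or genes would be lower in both. The 9 shared members were 100% of those lower in Xbp1 ko and 64.3% of those lower with the IRE1 siRNA label. Over all genes, 103 were lower in both, which was 35.6% of the 289 in Xbp1 ko and 66.9% of the 154 in the siRNA experiment. These correlations run across genes of the same tissue, which are not independent replicates. Genes tested in only 1 of the fits are left out of these totals. The values over all genes are not matched to the members in brightness, and most of those genes were dimmer than every member.

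**Figure D2:**
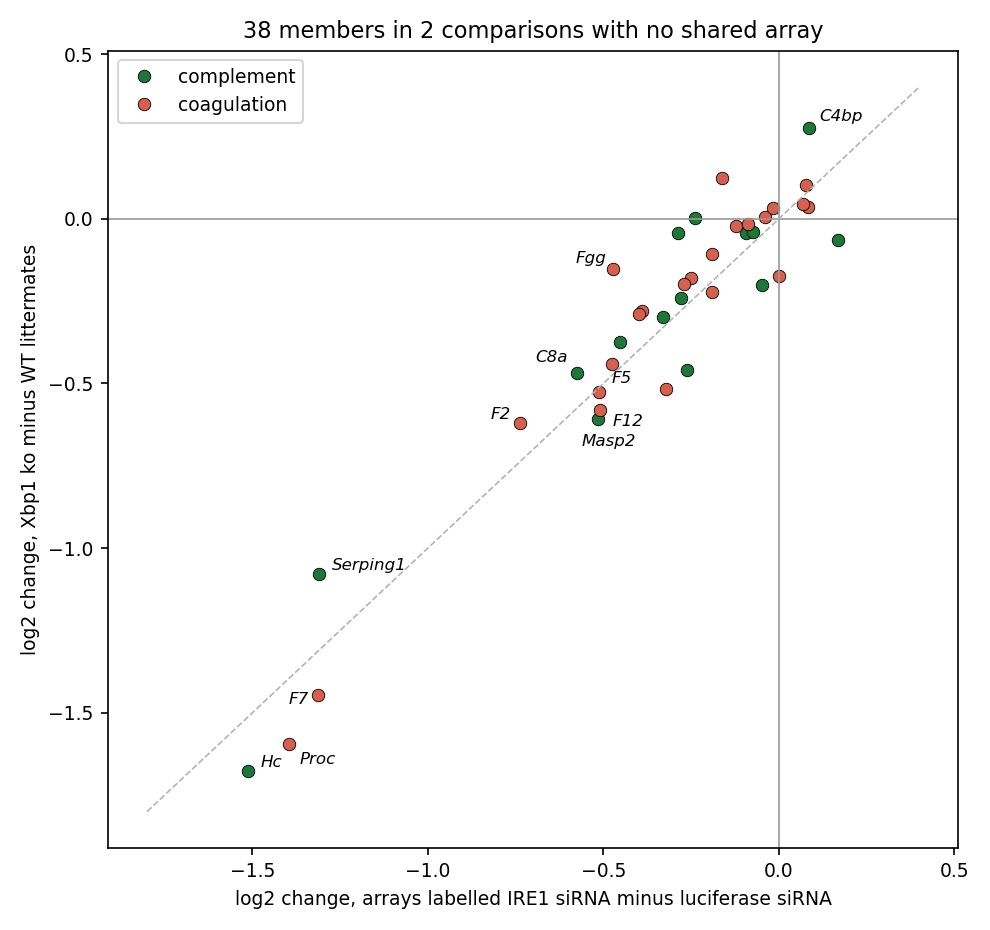
The log2 change in Xbp1 ko minus WT littermates (vertical axis) against that of arrays labelled IRE1 siRNA minus arrays labelled luciferase siRNA (horizontal axis) for 38 members, complement in green and coagulation in red. The dashed line marks equal change; Hc, Proc, F7 and Serping1 lie apart at the lower left, below -1 on both axes, and the other members lie above -0.8.

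Untreated Ire1 ko livers were then compared with untreated WT livers. None of the 38 members was called in either direction, against 0.943% of 15172 genes tested (0.0791% higher and 0.863% lower) and 3.2% among genes at least as bright as the dimmest member. At an unadjusted p under 0.05 limma gave 1 higher member (C4bp) and 0 lower. Changes ran between -0.28 for Serpina10 and 0.28 for C4bp, with a median of 0.04. Hc read 2230, 1885 and 2686 in untreated Ire1 ko, against 2396, 2480, 2322 and 2330 in untreated WT. F7 read 290, 325 and 260 in untreated Ire1 ko, against 317, 272, 299 and 339 in untreated WT. Proc read 1742, 2089 and 2121 in untreated Ire1 ko, against 1947, 1937, 1773 and 2050 in untreated WT. All 3 genes overlapped between the genotypes, with log2 changes of -0.09, -0.07 and 0.04 (SE 0.19, 0.14 and 0.09). Of the genes that modify or move clotting factors, Lman1, a cargo receptor for factors V and VIII, alone was called, at 361 ± 29.2 in untreated Ire1 ko (SD, n = 3) and 467 ± 18.5 in untreated WT (SD, n = 4), a log2 change of -0.37 (limma, adjusted p = 0.0382).

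Tunicamycin moved many genes of the liver. In Ire1 ko livers 21 members were lower after tunicamycin than in untreated livers and 2 were higher (C4bp and Masp1), against 10.3% of all genes called lower, 17.4% called higher and 27.7% called in all. In WT livers 27 were lower and 1 was higher (C4bp), against 17.6% called lower, 18.5% called higher and 36.1% called in all. Among genes at least as bright as the dimmest member, 29.6% were called lower in Ire1 ko and 41.4% in WT livers. The median log2 change of the members was -0.38 in Ire1 ko and -0.65 in WT livers, against 0.00 and -0.02 over all genes. Only 3001 of those 15172 genes were at least as bright as the dimmest member, so these medians cover genes of unlike brightness.

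Of the terminal complement members, 5 of 6 fell in Ire1 ko livers and 6 of 6 in WT livers. Of genes at least as bright as the dimmest member, 29.6% and 41.4% were called lower. Groups of so few members carry no test of the role. C6, a pore component, read 418, 417, 477 and 401 in Ire1 ko livers with tunicamycin, against 1108, 1032 and 1057 in untreated Ire1 ko. WT livers gave 440, 318, 388 and 433 with tunicamycin, against 1112, 1092, 919 and 835 untreated. The C6 response was of like size in both genotypes, with log2 changes of -1.32 in Ire1 ko (limma, adjusted p = 5.12e-07) and -1.33 in WT (limma, adjusted p = 7.18e-08), and a difference between them of 0.01 (SE 0.16). C8a, C8b, C8g and C9, the other pore components, had log2 changes between -0.48 and -0.38 in Ire1 ko and between -0.80 and -0.48 in WT livers, all called.

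Hc stood apart from C6. It read 1685, 1507, 1846 and 1973 in Ire1 ko livers with tunicamycin, against 2230, 1885 and 2686 in untreated Ire1 ko. These overlap, and the log2 change of -0.36 was not called (SE 0.19, limma, adjusted p = 0.199). In WT livers Hc read 536, 353, 804 and 613 with tunicamycin, against 2396, 2480, 2322 and 2330 untreated. No WT array overlapped, and the log2 change was -2.11 (SE 0.18, limma, adjusted p = 9.13e-08), the lowest of the members in WT livers.

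The vitamin K dependent anticoagulants fell in 3 of 3 members in both genotypes. Of genes at least as bright as the dimmest member, 29.6% (Ire1 ko) and 41.4% (WT) were called lower. Proz read 176, 160, 200 and 184 in Ire1 ko livers with tunicamycin, against 442, 438 and 495 untreated (log2 change -1.35, limma, adjusted p = 4.9e-08). In WT livers Proz read 128, 135, 157 and 147 with tunicamycin, against 425, 467, 467 and 434 untreated (-1.66, limma, adjusted p = 6.02e-10). Treated and untreated arrays were apart in both. Pros1 had log2 changes of -1.18 in Ire1 ko and -1.56 in WT. Proc read 1428, 1618, 1524 and 1460 in Ire1 ko livers with tunicamycin, against 1742, 2089 and 2121 untreated (-0.39, limma, adjusted p = 0.00233). In WT livers the values were 1121, 966, 1107 and 1199 with tunicamycin, against 1947, 1937, 1773 and 2050 untreated (-0.81, limma, adjusted p = 4.34e-07).

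Among the clotting enzymes, F7 read 114, 127, 155 and 169 in Ire1 ko livers with tunicamycin, against 290, 325 and 260 untreated (log2 change -1.06, limma, adjusted p = 1.84e-05). In WT livers F7 read 83, 85, 92 and 100 with tunicamycin, against 317, 272, 299 and 339 untreated (-1.77, limma, adjusted p = 1.05e-08). F7 fell in both genotypes with no overlap. F9 and F10 also fell in both, with log2 changes of -0.46 and -0.48 in Ire1 ko and of -0.79 and -0.65 in WT. Prothrombin did not pass the test in either: F2 had log2 changes of 0.00 in Ire1 ko and -0.09 in WT, although it was called lower in the Xbp1 ko and siRNA comparisons.

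Klkb1 encodes plasma prekallikrein, the substrate of factor XII. It read 253, 306, 352 and 355 in Ire1 ko livers with tunicamycin, against 706, 847 and 998 untreated (log2 change -1.42, limma, adjusted p = 5.23e-06). WT livers gave 187, 199, 271 and 253 with tunicamycin, against 737, 685, 710 and 929 untreated (-1.76, limma, adjusted p = 8.86e-08). All 4 contact and intrinsic members fell in WT livers, where 41.4% of genes at least as bright as the dimmest member were called lower. Klkb1 alone was called in Ire1 ko livers, where that share was 29.6%. The difference in calls between the genotypes is not itself tested by the counts, and the tests of the difference for F11, F12 and Kng1 were not called. Kng1 may share signal with its paralog Kng2. Serpind1, which encodes the thrombin inhibitor heparin cofactor II, read 529, 522, 646 and 569 in Ire1 ko livers with tunicamycin, against 1073, 1117 and 1301 untreated (-1.04, limma, adjusted p = 2.11e-06). In WT livers it read 396, 345, 483 and 389 with tunicamycin, against 1156, 1153, 1126 and 1242 untreated (-1.55, limma, adjusted p = 3.8e-09).

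Not all abundant plasma proteins fell. None of the 3 fibrinogen chains was called in either genotype, with log2 changes between -0.08 and 0.13 in Ire1 ko and between -0.16 and -0.05 in WT. Serpinc1 (antithrombin) and Plg (plasminogen) were not called in either, at -0.11 and -0.03 in Ire1 ko and at -0.15 and -0.14 in WT. F5 had log2 changes of 0.15 in Ire1 ko and -0.24 in WT, while F13b, a subunit of the clot-crosslinking factor XIII, fell by 0.77 on the log2 scale in Ire1 ko and by 1.18 in WT.

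At the start of complement, 4 of 5 lectin and classical members fell in both genotypes. Of genes at least as bright as the dimmest member, 29.6% (Ire1 ko) and 41.4% (WT) were called lower. C2, cleaved to form the C3 convertase, read 270, 213, 239 and 308 in Ire1 ko livers with tunicamycin, against 649, 522 and 517 untreated (log2 change -1.13, limma, adjusted p = 6.03e-06). In WT livers C2 read 143, 170, 173 and 190 with tunicamycin, against 466, 425, 502 and 471 untreated (-1.47, limma, adjusted p = 5.91e-08). No treated array of C2 reached an untreated one. The mannose-binding lectins Mbl1 and Mbl2 had log2 changes of -0.98 and -0.79 in Ire1 ko and of -1.30 and -1.07 in WT, all called. Masp2 had -0.53 in Ire1 ko and -0.86 in WT, both called. Masp1, the companion protease, was called higher in Ire1 ko at 0.31 (limma, adjusted p = 0.0185), but of its 4 other probe sets the brighter 2 pointed the other way, at -0.27 and -0.29. The remaining 2 had mean intensities of 4.97 and 4.03, close to the median probe set, and log2 differences of -0.02 and 0.03. With its probe sets averaged, the log2 change was -0.05 (limma, adjusted p = 0.817), and the call was also lost without untreated Ire1 ko replicate 2 or replicate 3.

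C4bp went the other way from its class. It read 1526, 1506, 1534 and 1618 in Ire1 ko livers with tunicamycin, against 1149, 789 and 1086 untreated (log2 change 0.64, limma, adjusted p = 0.0011). WT livers gave 1129, 1232, 1402 and 1070 with tunicamycin, against 739, 789, 985 and 779 untreated (0.56, limma, adjusted p = 0.00113). Every treated array exceeded every untreated array of its genotype. The other inhibitors, Serping1 and Cfi, which cleaves C4b and C3b, had log2 changes of -0.24 and -0.28 in Ire1 ko, with Cfi called, and of -0.41 and -0.43 in WT, both called.

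The 2 tunicamycin comparisons share no array but share 1 estimate of spread. All 21 members lower in Ire1 ko were lower in WT, which was 100% of the Ire1 ko list and 77.8% of the WT list. Over all genes, 1296 were lower in both, 82.5% of the Ire1 ko list and 48.4% of the WT list. These shares over all genes are not matched to the members in brightness. When arrays were shifted to a common median over bright probe sets, the median log2 change over all genes lay at -0.18 in Ire1 ko and at -0.14 in WT, and 27 members were called lower in Ire1 ko and 31 in WT, with C4bp the only member higher in each. Under that shift the genes called higher and lower numbered 1878 and 3365 in Ire1 ko (2634 and 1570 before) and 2379 and 3864 in WT (2807 and 2677 before). Summed over 8 Kupffer cell and macrophage markers, intensity lay between 605 and 859 in Ire1 ko livers with tunicamycin, against 569 to 1888 untreated, and between 391 and 538 in WT livers with tunicamycin, against 599 to 1204 untreated. The WT sums did not overlap and 3 of the 8 markers were called lower there (0 of 8 in Ire1 ko), and their part in the result was not tested. Hepatocyte sums were 37555 to 41079 in Ire1 ko with tunicamycin, against 36407 to 43783 untreated, and 35645 to 36292 in WT with tunicamycin, against 37808 to 41533 untreated. The WT hepatocyte sums did not overlap either. Sums over 8 endothelial markers were 344 to 465 in WT with tunicamycin, against 483 to 630 untreated, again apart. In Ire1 ko the endothelial sums were 431 to 635 with tunicamycin, against 406 to 587 untreated, and overlapped. The part of these sums in the result was not tested.

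**Figure D3:**
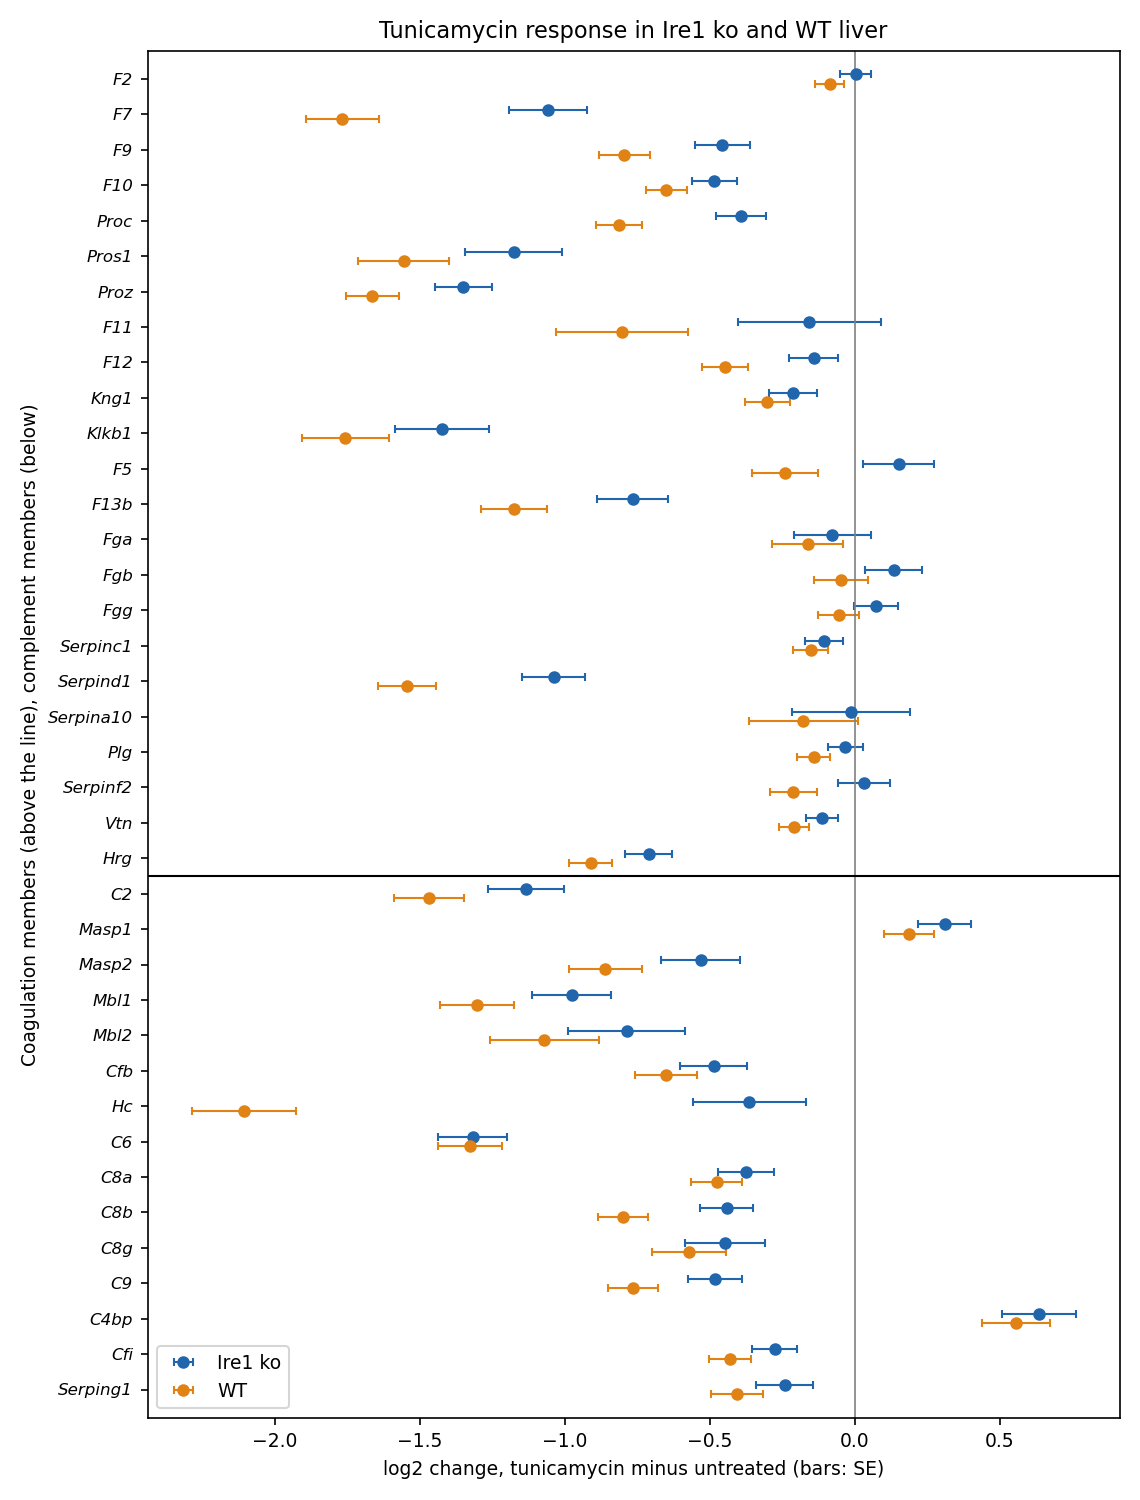
The log2 change under tunicamycin against untreated livers (horizontal axis, bars are SE) for 38 members, with Ire1 ko (blue) drawn above WT (orange) on each line and coagulation above complement. C6 is at -1.32 in Ire1 ko and -1.33 in WT; Hc is at -0.36 in Ire1 ko and -2.11 in WT; C4bp is the member farthest to the right in both.

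The same arrays allow the genotypes to be compared under tunicamycin. With tunicamycin 23 of 38 members were higher in Ire1 ko than in WT livers and 0 were lower, against 9.68% of all genes called higher (8.5% lower, 18.2% in either direction) and 26.8% called higher among genes at least as bright as the dimmest member. Coagulation gave 16 of the 23 and complement 7. Hc had the largest difference, 1753 ± 202 in Ire1 ko and 577 ± 187 in WT livers (SD, n = 4 each), a log2 change of 1.66 (SE 0.18, limma, adjusted p = 4.4e-06). It was followed by F7 at 0.64 (limma, adjusted p = 0.00157), Pros1 at 0.63 (limma, adjusted p = 0.00849), C2 at 0.60 and F13b at 0.56 (limma, adjusted p = 0.00182 each). F5, not called under tunicamycin in either genotype, read 693, 834, 599 and 581 in Ire1 ko and 445, 428, 551 and 459 in WT livers with tunicamycin (log2 change 0.52, limma, adjusted p = 0.0037), with no overlap. The terminal components other than Hc lay between -0.14 and 0.17 and none was called. The count of 23 was sensitive to single arrays: it was 12 without WT tunicamycin replicate 2, 15 without WT tunicamycin replicate 1, and 14 without Ire1 ko tunicamycin replicate 1 or replicate 4. Hc, F7, Proc, C2, F13b, F5, F10, Hrg, Pros1, Proz, Serpind1 and Vtn were called in all 15 of the fits that left out 1 array. Marker sums moved with this comparison. Over the 10 hepatocyte markers they were 37555 to 41079 in Ire1 ko and 35645 to 36292 in WT livers with tunicamycin, and 3 of 9 tested markers (Cyp2e1, Hpd and Fah) were called higher. Over the 8 Kupffer cell and macrophage markers they were 605 to 859 in Ire1 ko and 391 to 538 in WT livers with tunicamycin, and 0 of 8 were called. Neither sum overlapped between the genotypes, and their part in the result was not tested.

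Whether the response itself differed was tested by the interaction, the tunicamycin response in Ire1 ko minus that in WT livers. It was called for 4 members, all positive, against 3.58% of all genes called positive (3.95% negative, 7.53% in either direction) and 8.63% called positive among genes at least as bright as the dimmest member. The count of 4 of 38 lies close to the share among bright genes. Hc had an interaction of 1.74 (SE 0.26, limma, adjusted p = 0.000501), called in every fit that left out 1 array and under every other setting, with adjusted p at most 0.00292. F7 had 0.71 (SE 0.18, limma, adjusted p = 0.026), lost in 7 of 15 fits that left out 1 array. Serpind1 had 0.51 (limma, adjusted p = 0.0476), lost in 12, and Proc had 0.42 (limma, adjusted p = 0.0386), lost in 10. The count of 4 was 1, Hc alone, without WT untreated replicate 1 or 4, WT tunicamycin replicate 1 or 2, or Ire1 ko tunicamycin replicate 3 or 4. It was 2 without WT untreated replicate 2 or Ire1 ko untreated replicate 1. The interaction was positive in 38 of 38 members, against 57.3% of all genes and 66.6% of genes at least as bright as the dimmest member, and in 36 with the common median and 34 without Ire1 ko untreated replicate 2. The members were read on the same 15 arrays and are not replicates, so this count of signs carries no test.

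**Figure D4:**
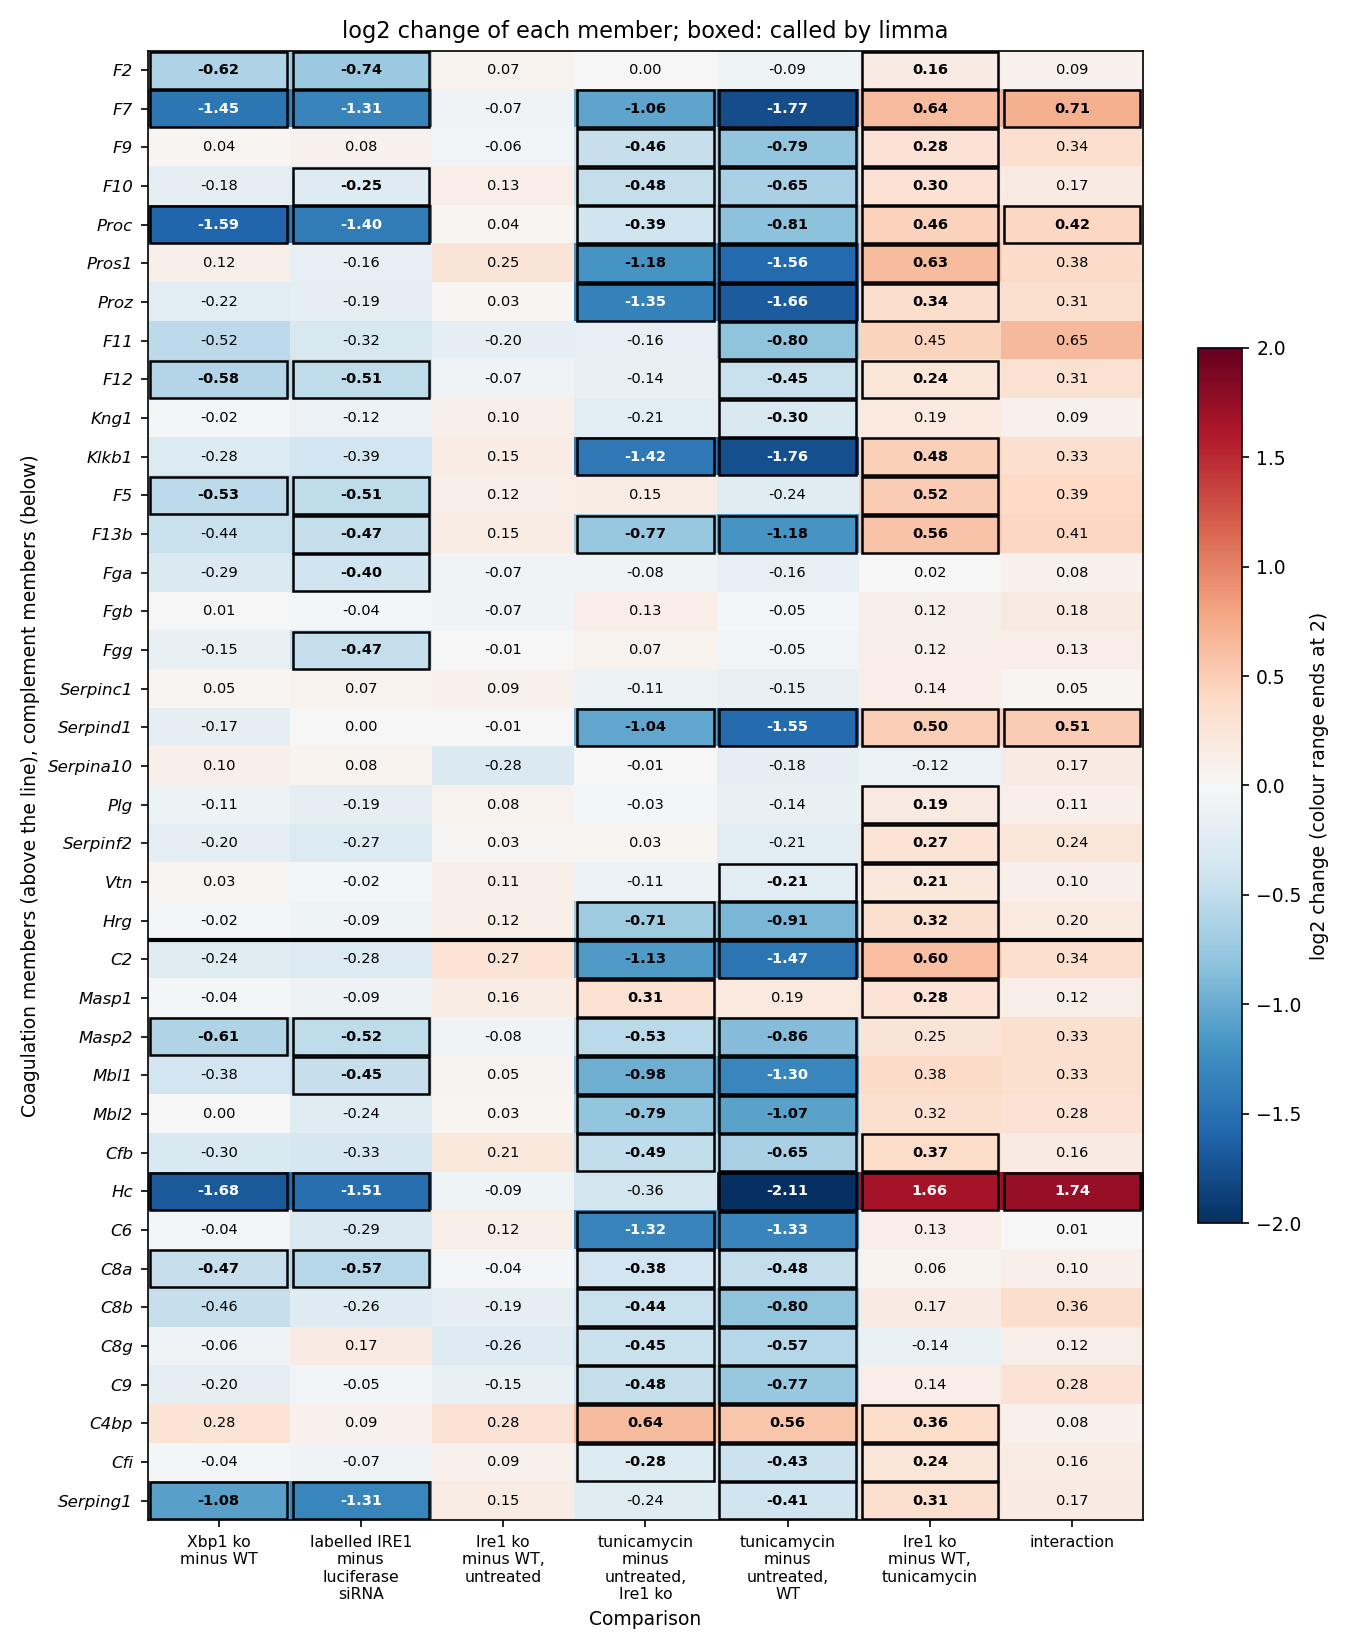
The log2 change of each of the 38 members (lines, coagulation above complement) in the 7 comparisons (columns), with boxes around changes called by limma. Boxes in the Xbp1 and siRNA columns mark mostly the same genes, the untreated Ire1 column holds none, and the fibrinogen chains Fga, Fgb and Fgg are boxed only in the siRNA column (Fga and Fgg).

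Of the 9 genes that modify or move clotting factors, 4 were higher and 2 lower with tunicamycin in Ire1 ko livers, against 17.4% and 10.3% of all genes. In WT livers 4 were higher and 3 lower, against 18.5% and 17.6%. Among genes at least as bright as the dimmest member, 29.6% were called lower in Ire1 ko and 41.4% in WT, although some of the 9 were dimmer. Mcfd2, the partner of Lman1 in carrying factors V and VIII out of the ER, read 1901, 1758, 1877 and 1927 in Ire1 ko livers with tunicamycin, against 771, 646 and 564 untreated (log2 change 1.51, limma, adjusted p = 6.23e-09). In WT livers the values were 2549, 2638, 2425 and 2522 with tunicamycin, against 808, 830, 803 and 686 untreated (1.70, limma, adjusted p = 2.19e-10). Treated and untreated arrays of Mcfd2 were far apart in both genotypes. Lman1 rose less in Ire1 ko (0.25, limma, adjusted p = 0.0302) than in WT livers (0.83, limma, adjusted p = 1.9e-07), and the difference was called (-0.58, SE 0.11, limma, adjusted p = 0.00345). Furin had log2 changes of 0.24 in Ire1 ko, not called, and of -0.49 in WT (limma, adjusted p = 0.0226). Its interaction of 0.73 was not called (limma, adjusted p = 0.0733).

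Of the 18 measured complement genes outside the set, 4 were lower and 1 higher with tunicamycin in Ire1 ko livers, against 10.3% and 17.4% of all genes. In WT livers 6 were lower, against 17.6% of all genes. Among genes at least as bright as the dimmest member, 29.6% were called lower in Ire1 ko and 41.4% in WT, although some of the 18 were dimmer. C1s1, the protease of C1, read 394, 395, 394 and 387 in Ire1 ko livers with tunicamycin, against 707, 618 and 693 untreated (log2 change -0.77, limma, adjusted p = 0.000192). WT livers gave 230, 195, 313 and 211 with tunicamycin, against 508, 460, 552 and 529 untreated (-1.13, limma, adjusted p = 8.05e-07). C1ra, its partner protease, and C4b also fell in both genotypes, with log2 changes of -0.46 each in Ire1 ko and of -0.84 and -0.97 in WT. Among coagulation genes outside the set, Anxa2, a surface receptor for plasminogen activation, had log2 changes of 0.74 in Ire1 ko (limma, adjusted p = 0.0276) and 2.92 in WT (limma, adjusted p = 2.05e-08), and an interaction of -2.18 (limma, adjusted p = 0.000418).

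Complement and coagulation were last set against each other over the 8 groups. The median log2 change was -0.24 for complement and -0.18 for coagulation in Xbp1 ko against WT littermates, and -0.28 and -0.25 for the labelled siRNA groups. Under tunicamycin it was -0.45 for complement and -0.16 for coagulation in Ire1 ko livers, and -0.77 and -0.45 in WT livers. By counts, 11 of 15 complement and 10 of 23 coagulation members were lower with tunicamycin in Ire1 ko, and 13 of 15 and 14 of 23 in WT. Of genes at least as bright as the dimmest member, 29.6% were lower in Ire1 ko and 41.4% in WT. The members are not replicates, so these medians and counts carry no test. Averaged on each array, the log2 intensity of both classes separated the groups in 5 of 6 comparisons and overlapped between untreated Ire1 ko and untreated WT. The mean of complement differed by -0.35 and that of coagulation by -0.31 in Xbp1 ko against WT littermates, by -0.46 and -0.40 under tunicamycin in Ire1 ko, and by -0.77 and -0.68 under tunicamycin in WT.

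Complement minus coagulation, taken on each array, overlapped between the groups in all 6 comparisons. It averaged -0.19 ± 0.02 in Xbp1 ko and -0.14 ± 0.05 in WT littermates (SD, n = 4 each). It averaged -0.30 ± 0.07 with the IRE1 siRNA label and -0.25 ± 0.02 with the luciferase siRNA label (SD, n = 4 each). In the last experiment it averaged -0.18 ± 0.08 in Ire1 ko with tunicamycin, -0.22 ± 0.08 in WT with tunicamycin and -0.13 ± 0.05 in untreated WT (SD, n = 4 each), and -0.12 ± 0.07 in untreated Ire1 ko (SD, n = 3). The largest shift within the 6 comparisons was -0.09, for tunicamycin in WT livers, beside a pooled SD of 0.06 between arrays of a group. Across experiments, both siRNA labels had lower means than every other group, and age and experiment differ there too. The level of this score depends on which probe sets stand for each gene and says nothing of protein amounts.

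**Figure D5:**
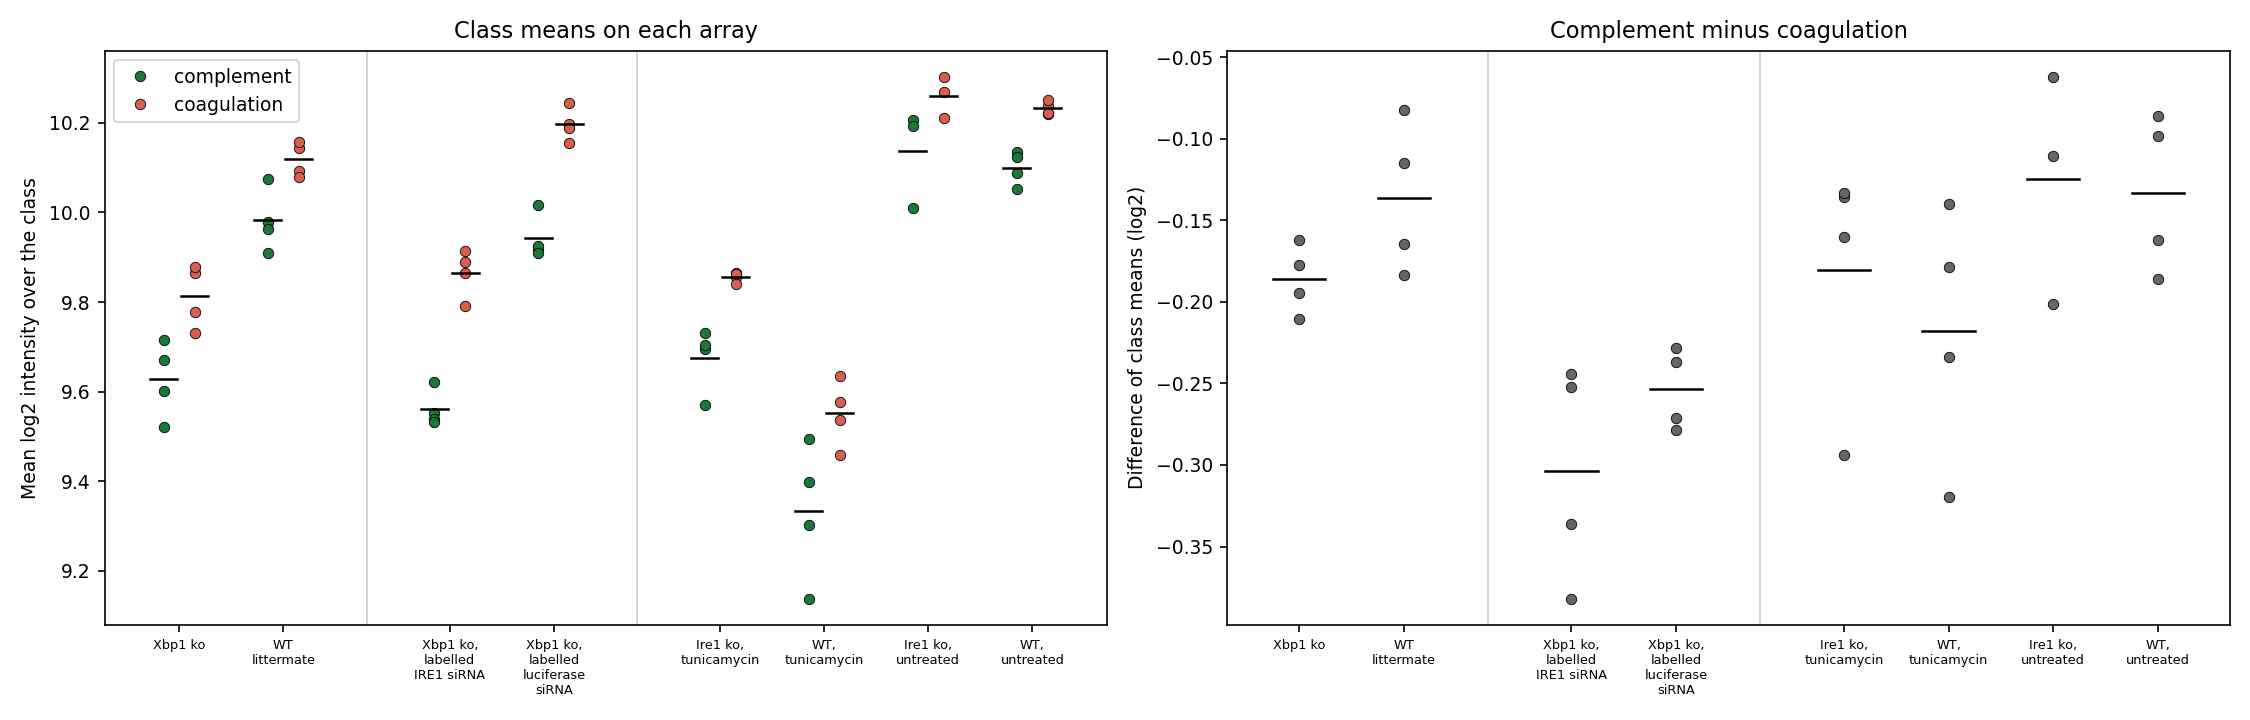
Left, mean log2 intensity on each array over the 15 complement (green) and 23 coagulation (red) members by group, with group means as lines; right, complement minus coagulation on each array. Both class means are lower in Xbp1 ko, with the IRE1 siRNA label and with tunicamycin, while the right-hand points overlap between the groups of each comparison.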

How the data were processed

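Liver RNA on 31 arrays in 8 groups was analysed. Per the labels' protocols, total RNA was extracted with Trizol and RNeasy and biotinylated cRNA was hybridised. The deposited values are probe set intensity on a linear scale in whole numbers; per the submitters' processing notes they were made with RMA and the affy package, with no versions, and whether all arrays were normalised together is not given in the sources used here. RMA compresses fold changes of dim probe sets, and 66.2% of the deposited intensity values were 6 or less. The number of arrays limits the precision. All columns were mapped (0 unmapped), 0 pairs of arrays were identical, and arrays of a group correlated at 0.9841 to 0.9934. The annotation gave a single symbol to 28898 of 45037 probe sets, several to 551, and did not list 15588.

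Log2 of the intensity was tested with limma 3.58.1 in R 4.3.3 (lmFit, eBayes with intensity trend), with p-values adjusted by Benjamini-Hochberg over all genes tested, two-sided, at 0.05. The Xbp1 and siRNA experiments were fitted separately on 8 arrays each, and the 4 Ire1 groups in 1 fit of 15 arrays. The fits were tested on simulated data. Alternatives were quantile normalization, a common median over bright probe sets, averaged probe sets, other filters, no trend, 1 fit over 31 arrays, a replicate block and leaving out each array. Every member could be named; per-array values were given for called members with the largest changes and for those needed to describe a role, and up to 4 called genes of each further list were named. The members and lists were chosen with earlier results of these data known. Markers of 8 cell types (hepatocytes, Kupffer cells, endothelial, stellate and other) were summed on each array.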

Additional observations from a re-analysis of the deposited data

Results flagged for a closer look

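Of 266 groups of 4 arrays tested for an array far from the others, 15 stood out. Chance gives about 1 in 20 groups, so their number is near what chance gives, and 3 of the 15 lay on WT littermate replicate 4. Hc read 1653 on replicate 2 labelled luciferase siRNA (others 1227 to 1235). Serping1 read 1004 on Xbp1 ko replicate 1 (others 793 to 818) and 1562 on WT littermate replicate 4 (others 1876 to 1894). Fgg read 2709 on replicate 2 labelled IRE1 siRNA (others 3051 to 3112) and 4200 on replicate 3 labelled luciferase siRNA (others 4127 to 4132). F9 read 554 on Ire1 ko tunicamycin replicate 4 (others 475 to 487). F10 read 1372 on WT littermate replicate 4 (others 1090 to 1123) and 716 on WT tunicamycin replicate 2 (others 801 to 818), and F11 read 82 on that same array (others 113 to 117). Serpind1 read 1176 on WT littermate replicate 3 (others 1076 to 1088). Pros1 read 76 on WT littermate replicate 4 (others 91 to 94). C2 read 430 on replicate 1 labelled luciferase siRNA (others 483 to 493). Fga read 3641 on WT untreated replicate 4 (others 4141 to 4216). Serpina10 read 1071 on that array (others 1447 to 1513) and 1055 on WT tunicamycin replicate 3 (others 1250 to 1269).

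The response to tunicamycin differed between Ire1 ko and WT livers by the test of the difference for 4 members: Hc at 1.74, F7 at 0.71, Serpind1 at 0.51 and Proc at 0.42 on the log2 scale (limma). Of genes at least as bright as the dimmest member, 8.63% were called positive, and 4 of 38 members lies close to that share. The calls of F7, Proc and Serpind1 were lost in 7, 10 and 12 of the 15 fits that left out 1 array, and that of Hc in 0.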

How the results depend on the processing

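With 3 or 4 arrays a group, the number of arrays limits the precision, and the exchange of the siRNA labels would turn every direction of that experiment. Filtering on a group mean of at least 16 called 17 members in Xbp1 ko (16 lower, 1 higher) against 9, and 402 genes against 251 in the siRNA experiment. A single fit over 31 arrays called 571 genes in Xbp1 ko against 380. For the interaction, 2 members were called, against 4, with the common median, with no filter and with no intensity trend. Complement minus coagulation in the tunicamycin response of Ire1 ko livers had a median of -0.19 with quantile normalization and -0.21 with averaged probe sets, against -0.29. Masp1 under tunicamycin in Ire1 ko reversed to -0.0478 with averaged probe sets (limma, adjusted p = 0.817). With averaged probe sets, the mean of complement minus coagulation was -0.32 in Xbp1 ko, -0.27 in WT littermates, -0.46 with the IRE1 siRNA label, -0.41 with the luciferase siRNA label, -0.37 and -0.39 with tunicamycin in Ire1 ko and WT, and -0.29 in both untreated groups. The causes were not tested.

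Same-numbered arrays correlated at -0.181 to 0.294 in their deviations from group means. Differently numbered arrays were not correlated for reference, so whether the numbers pair the samples is not settled. A replicate block left 2 members against 14 and 43 genes against 251 in the siRNA experiment, and 197 genes against 380 in Xbp1 ko. The split of higher and lower genes moved with scaling: 51 and 282 (common median) or 65 and 195 (quantile) against 91 and 160 for the siRNA labels, 29 and 102 against 12 and 131 for untreated Ire1 ko (common median), and 2049 and 2235 against 2634 and 1570 for tunicamycin in Ire1 ko (quantile).

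Leaving out 1 array gave 8 to 11 members called in Xbp1 ko, 12 to 13 for the siRNA labels, 0 in untreated Ire1 ko, 20 to 24 and 28 to 31 under tunicamycin in Ire1 ko and WT, 12 to 23 between genotypes under tunicamycin and 1 to 4 for the interaction. Genes called ran 237 to 373 in Xbp1 ko (237 without WT littermate replicate 1), 189 to 254 for the siRNA labels, 95 to 147 in untreated Ire1 ko (95 without Ire1 ko untreated replicate 3), 3559 to 4208 and 5058 to 5568 under tunicamycin in Ire1 ko and WT, 2335 to 2860 between genotypes under tunicamycin and 926 to 1108 for the interaction. The complement minus coagulation median ran -0.09 to -0.01 in Xbp1 ko, -0.0912 to 0.0239 for the siRNA labels, -0.0865 to 0.0688 in untreated Ire1 ko, -0.32 to -0.22 and -0.39 to -0.23 under tunicamycin in Ire1 ko and WT, -0.05 to 0.01 between genotypes under tunicamycin and -0.1198 to 0.0188 for the interaction. For single members outside these fits, 1982 values kept direction and side of the threshold, 55 passed it anew, 54 lost it, 36 not called moved and 1 reversed.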

Other observations

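Of 20 other measured proteins that hepatocytes secrete, 4 were lower and 0 higher in Xbp1 ko livers, where 2.07% of all genes were called lower: Afm (afamin, a vitamin E carrier), Azgp1 (zinc alpha2-glycoprotein), Itih1 and Apoa1. Afm averaged 265 ± 44.8 in Xbp1 ko and 717 ± 38.2 in WT littermates (SD, n = 4 each), a log2 change of -1.45 (limma, adjusted p = 0.00041), and Azgp1 averaged 1476 ± 155 in Xbp1 ko and 3275 ± 75.3 in WT littermates (SD, n = 4 each; -1.16, limma, adjusted p = 0.000163). With the IRE1 siRNA label 3 of the 20 were lower (Afm, Azgp1 and Itih1, with log2 changes of -1.43, -1.08 and -0.66) and 1 was higher (Apoc3), against 1.14% and 0.649% of all genes. Alb, which encodes albumin, was not called in any of the 7 comparisons. Under tunicamycin 6 of the 20 were lower and 2 higher in Ire1 ko livers, against 10.3% and 17.4% of all genes, and 12 were lower and 0 higher in WT livers, against 17.6% and 18.5%. Among genes at least as bright as the dimmest member, 29.6% were called lower in Ire1 ko and 41.4% in WT livers. The count of 6 of 20 lies close to that share. In Xbp1 ko this share was 6.87%, and with the IRE1 siRNA label it was 3.53%. Of 16 acute phase genes outside the set, Itih4 alone was lower in Xbp1 ko (-1.02, limma, adjusted p = 0.0155) and with the IRE1 siRNA label (-1.37, limma, adjusted p = 0.000754). Under tunicamycin 4 of the 16 rose and 0 fell in Ire1 ko, against 17.4% and 10.3% of all genes. In WT livers 5 rose and 3 fell, against 18.5% and 17.6%. Apcs (serum amyloid P) averaged 3830 ± 417 with tunicamycin in Ire1 ko (SD, n = 4), against 1169 ± 700 untreated (SD, n = 3), and 2978 ± 437 with tunicamycin in WT, against 857 ± 262 untreated (SD, n = 4 each). Crp (C-reactive protein) averaged 1428 ± 298 with tunicamycin in Ire1 ko and 746 ± 107 in WT livers (SD, n = 4 each), and its interaction was 1.08 (SE 0.18, limma, adjusted p = 0.0013).

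Of 13 liver transcription factors, 5 rose and 5 fell with tunicamycin in Ire1 ko livers, and 2 rose and 6 fell in WT livers. The shares of all genes called higher and lower were 17.4% and 10.3% in Ire1 ko, and 18.5% and 17.6% in WT. Among genes at least as bright as the dimmest member, 29.6% were called lower in Ire1 ko and 41.4% in WT, although some of the 13 were dimmer. Cebpa read 413, 394, 499 and 475 with tunicamycin in Ire1 ko, against 696, 802 and 927 untreated (log2 change -0.86, limma, adjusted p = 0.00412). In WT livers it read 124, 231, 235 and 278 with tunicamycin, against 1059, 1192, 958 and 1181 untreated (-2.39, limma, adjusted p = 3.46e-08). The interaction was called and positive for 6 of the 13 (Onecut1, Foxa2, Cebpa, Nr1h4, Cebpb and Hnf4a), with Cebpa at 1.54 (SE 0.28, limma, adjusted p = 0.00207) and Hnf4a at 0.58 (SE 0.12, limma, adjusted p = 0.00803). It was called positive for 3.58% of all genes and for 8.63% of genes at least as bright as the dimmest member. Foxa2 and Onecut1 read under 20 in every group given tunicamycin, close to the median probe set, where fold changes are compressed. Onecut1 was already lower in untreated Ire1 ko, at 27.0 ± 7.81 (SD, n = 3), than in untreated WT livers, at 88.8 ± 29.98 (SD, n = 4; limma, adjusted p = 0.00121). The part of these factors in the changes of complement and coagulation genes was not tested.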
